A study of Bos taurus and Bos grunniens and Bubalus bubalis with 15 samples.

Results

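Small leucine-rich proteoglycans are secreted proteins of the extracellular matrix, and 5 of them are described here in the longissimus dorsi muscle, which runs along the spine: decorin (DCN), biglycan (BGN), lumican (LUM), fibromodulin (FMOD) and osteoglycin (OGN). The members are all probe sets that the array's annotation assigns to one of these symbols. That gave 6 of 24016 probe sets, 1 each for DCN, LUM, FMOD and OGN and 2 for BGN, out of 9155 genes with a symbol of their own. All 6 lay above the filter on low values, which kept 14409 probe sets and 7139 named genes. The arrays came from 3 Guangxi buffalo, 3 Qinghai yak and 9 Qinchuan cattle, the cattle being 3 females, 3 castrated males and 3 intact males. All animals were slaughtered at 36 months and 1 sample per animal was hybridised. The cattle were born close together and kept under one regime. The labels give no sex for yak or buffalo and no age at castration.

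In muscle, these proteins lie in the connective tissue sheaths around fibres and bundles, where they bind collagen fibrils and influence how thick the fibrils grow. DCN and BGN are close relatives that carry chondroitin or dermatan sulphate chains. Both bind TGF-beta, and DCN also binds myostatin, a growth factor that restrains muscle mass. LUM and FMOD form a second pair that can carry keratan sulphate chains, bind overlapping sites on collagen and, in mice, control fibril assembly at successive stages. OGN, also called mimecan, belongs to another class of the family.

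Values are probe set intensities as the authors deposited them. Fold changes are differences of log2(intensity + 16), which understates changes of dim probe sets, and were tested with limma over all 14409 probe sets. A call means an adjusted p under 0.05. Array medians on that scale lay between 6.71 and 6.81 in all 15 arrays. Mean intensity without the control probe sets was lower in buffalo, at 304 to 313, than in yak (335 to 359) and in cattle (342 to 364). Probes were designed on cattle sequence, so less transcript and weaker binding cannot be told apart for buffalo and yak. The ratio of the 3′ to the 5′ actin control, which rises with RNA breakdown, was 1.42 to 1.73 in buffalo and 1.49 to 1.93 in yak, against 1.22 to 1.33 in females, 1.24 to 1.27 in castrated males and 1.17 to 1.48 in intact males. The summed intensity of 9 muscle fibre markers, such as ACTA1 and CKM, was 104567 to 108281 in buffalo and 104190 to 115439 in yak. These lay below all females (116109 to 122438) and castrated males (120732 to 125700), while intact males ran from 104413 to 123497.

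**Figure D1:**
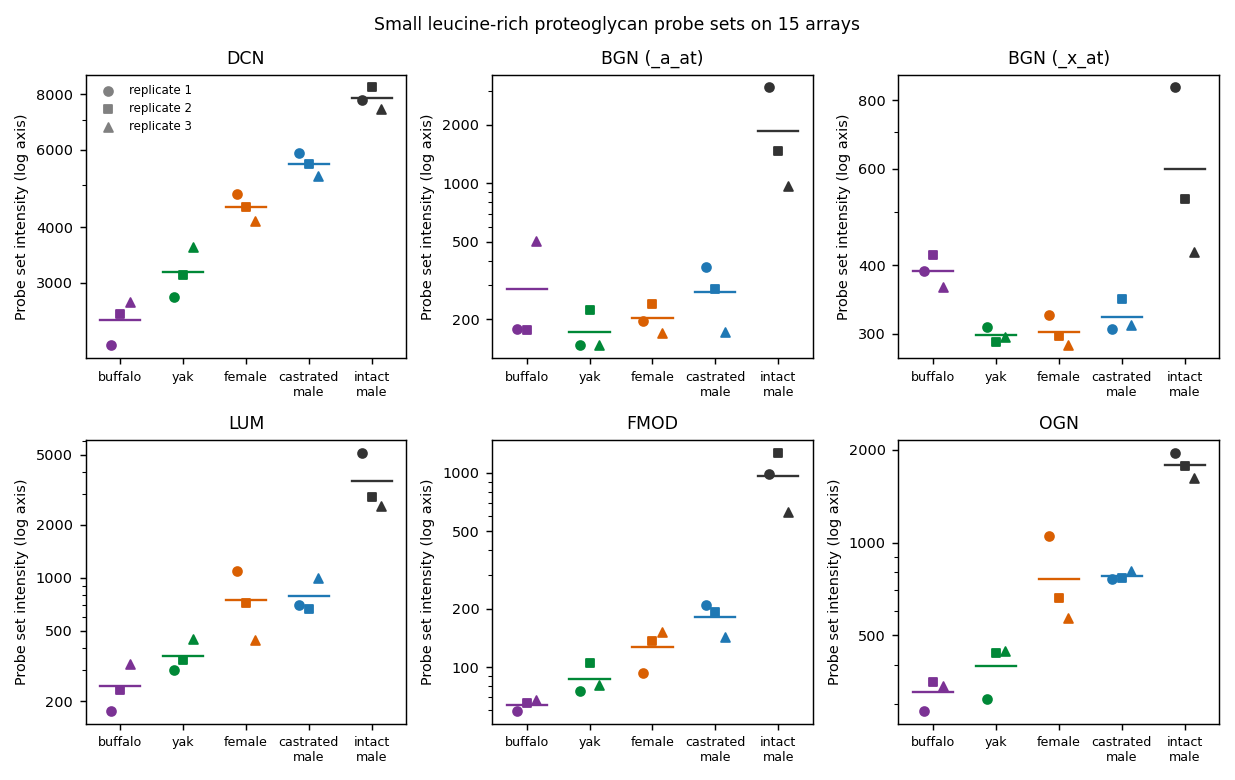
Intensity of each probe set (log axis) on each array, by group; points are single animals, their shape gives the replicate number, and lines are group means. Intact males lie above castrated males and females in all 6 panels, and the buffalo mean is lowest for DCN, LUM, FMOD and OGN but not for BGN.

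Castrated males were compared with intact males to see how the absence of the testes relates to muscle expression. DCN, LUM, FMOD and OGN were called lower in castrated males, and so was BGN by 1 of its 2 probe sets. The other BGN set was lower too but was not called. Read from the brighter probe set on the log2 scale, 4 of 5 members were called lower and 0 higher. Over all named genes 1.02% were called lower and 0.532% higher. None of the 6 probe sets overlapped between the groups, where 14.8% of all genes did not overlap and were lower in castrated males. In whole muscle, fewer cells of a type and less RNA per cell cannot be told apart.

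DCN, the member with the highest intensities, read 5882, 5556 and 5240 in castrated males, against 7780, 8293 and 7415 in intact males. The means were 5559 ± 321 in castrated males and 7829 ± 441 in intact males (SD, n = 3 each). The spread within each group was small beside the 1.41-fold shift between them (-0.49 on the log2 scale, SE 0.09, adjusted p = 0.0400). 747 of the 7139 genes had a lower fold change than DCN.

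LUM, which helps to space collagen fibrils, read 701, 666 and 1001 in castrated males, against 5133, 2896 and 2565 in intact males. The lowest intact male stood far above the highest castrated male. LUM was 4.27-fold lower, at -2.09 on the log2 scale (SE 0.35, adjusted p = 0.0281). FMOD, its relative, read 208, 192 and 143 in castrated males, against 983, 1270 and 630 in intact males. FMOD was 4.81-fold lower, at -2.27 on the log2 scale (SE 0.27, adjusted p = 0.00726), and 20 genes had a lower fold change. The intact males spread widely for both genes, and a different animal was highest: intact male 1 for LUM, intact male 2 for FMOD.

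OGN read 765, 770 and 806 in castrated males, against 1956, 1769 and 1614 in intact males. The castrated males were tightly grouped (780 ± 22.5, SD, n = 3), and the lowest intact male stood clear of them. OGN was 2.25-fold lower, at -1.17 on the log2 scale (SE 0.21, adjusted p = 0.0373).

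The 2 BGN probe sets gave unequal sizes. The first, named with the ending _a_at, read 372, 286 and 172 in castrated males, against 3116, 1471 and 969 in intact males. By limma it was 5.93-fold lower (log2 fold change -2.57, SE 0.40, adjusted p = 0.0218). The second, ending in _x_at, read 307, 347 and 312 in castrated males, against 844, 529 and 423 in intact males. It differed by -0.81 (SE 0.22) and was not called (adjusted p = 0.104). Both put the 3 intact males in one order, with intact male 1 highest. By Affymetrix naming, an _x_at set can include probes shared with other transcripts and an _a_at set holds probes shared by transcripts of one gene. The second set was higher by mean log2 and stood for BGN in the counts.

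FMOD was the member that stayed called in all 21 alternatives for this comparison. Leaving out castrated male 1, 2 or 3, female 2 or intact male 2 left 1 called member, FMOD. In the same fits DCN, LUM and OGN kept their direction. DCN was called in 11 of the 21 alternatives, and it was the member lost without female 1 (adjusted p = 0.0537) or female 3 (adjusted p = 0.0659), which left a count of 3. Without intact male 1, OGN missed the threshold (log2 fold change -1.10, adjusted p = 0.0622). Without intact male 3, the count was 5, with BGN at -1.02 (adjusted p = 0.0274).

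Females differed from intact males at the same 4 genes and in the same direction. This comparison uses the same 3 intact males, so it does not repeat the first independently. Again 4 of 5 members were called lower and 0 higher, where 4.09% of all genes were lower and 1.39% higher. All 6 probe sets were free of overlap, against 20.6% of all genes that were lower in females without overlap.

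DCN read 4761, 4455 and 4144 in females, against the intact males' values above, and was 1.76-fold lower (log2 fold change -0.81, SE 0.09, adjusted p = 0.00451). FMOD read 93.4, 136 and 151 in females and was 6.68-fold lower (log2 fold change -2.74, SE 0.27, adjusted p = 0.00179). LUM read 1093, 718 and 447 in females, a spread wider than in castrated males, and was 4.68-fold lower (log2 fold change -2.23, SE 0.35, adjusted p = 0.0176). OGN read 1053, 664 and 570 in females and was 2.38-fold lower (log2 fold change -1.25, SE 0.21, adjusted p = 0.0198). Female 1 was the highest female for DCN, LUM and OGN and the lowest for FMOD.

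BGN in females repeated the gap between its probe sets. The first set read 196, 240 and 171 in females and was 7.68-fold lower than in intact males, at -2.94 on the log2 scale (SE 0.40, adjusted p = 0.0109). The second read 325, 297 and 286 in females and lay just outside the threshold (log2 fold change -0.89, SE 0.22, adjusted p = 0.0504). DCN and FMOD were called in all 21 alternatives. LUM and OGN lost their calls without female 2, female 3 or intact male 2, which left 2 called members, and without intact male 3 BGN was called too, for a count of 5.

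**Figure D2:**
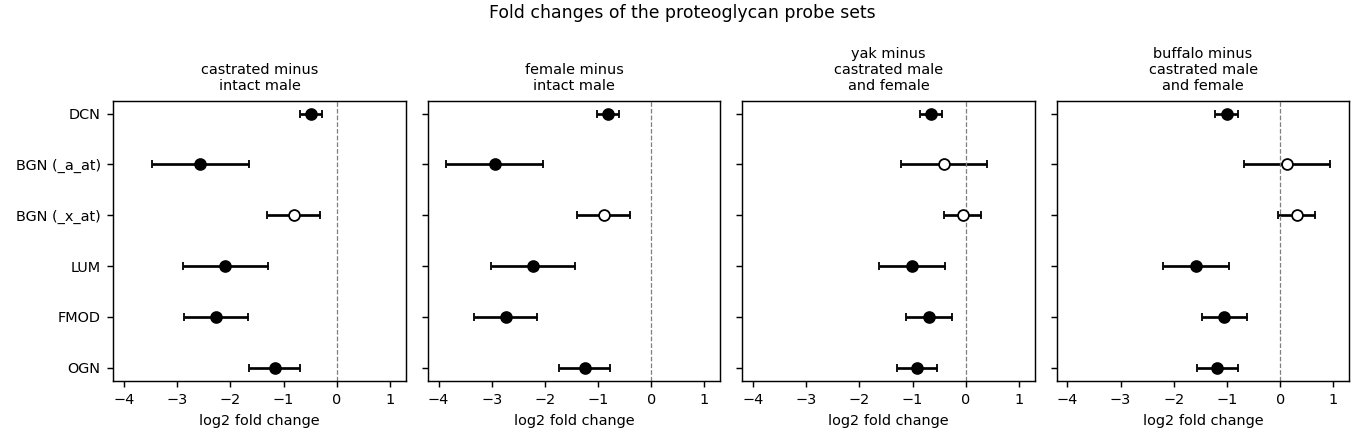
Log2 fold changes of the 6 probe sets in 4 comparisons, on the log2(intensity + 16) scale, with 95% confidence intervals from limma; filled points have an adjusted p under 0.05. In castrated males and females against intact males DCN moved least among the called probe sets, and in buffalo against castrated males and females both BGN points lie right of 0.

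No member was called between females and castrated males. In limma, 0 of 5 members were called, and 0.028% of all genes were called in either direction. At an unadjusted p under 0.05 there was 1 member, DCN. Its females, at 4144 to 4761, all lay below its castrated males, at 5240 to 5882. The DCN difference was -0.32 (SE 0.09, adjusted p = 0.554), with an unadjusted 95% interval of -0.53 to -0.11. FMOD differed by -0.47, with a 95% interval of -1.07 to 0.13, and LUM by -0.13, with an interval of -0.93 to 0.66. OGN differed by -0.08, with an interval of -0.56 to 0.40.

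Unequal shifts of the members could not pass a test with 3 against 3 arrays, and 0 of 10 pairs did in either comparison with intact males. Taking, within each array, the log2 difference between 2 members removes what they share. In castrated males against intact males the DCN shift lay above that of FMOD by 1.77 log2 units (SE 0.27), above that of LUM by 1.60 (SE 0.38) and above that of OGN by 0.68 (SE 0.10). In these 3 pairs the groups did not overlap, and the exact two-sided permutation p was 0.1, the smallest that 3 against 3 arrays allow (adjusted p = 0.143 over 10 pairs). 7 of the 10 pairs reached that smallest p in castrated males and 6 of 10 in females. LUM and FMOD differed by 0.17 (SE 0.48, exact p = 0.8).

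Buffalo and yak were compared with cattle to ask how the muscle of these groups differs. Each species is a single breed, yak and buffalo have no sex given, and only the cattle are said to share a regime. Species, breed, sex and rearing therefore cannot be told apart. DCN, LUM, FMOD and OGN were lower in both species than in cattle. The cattle average includes the high intact males, so the comparison with castrated males and females alone is given beside it.

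In yak, 4 of 5 members were called lower and 0 higher than in cattle, where 16.4% of all genes were lower and 13.2% higher. Against castrated males and females the count was also 4, where 11.6% of all genes were lower and 10.4% higher. DCN read 2786, 3128 and 3619 in yak, below every cattle array. It differed by -0.87 from all cattle (SE 0.09, adjusted p = 3.59e-05) and by -0.65 from castrated males and females (SE 0.10, adjusted p = 0.00058). OGN read 312, 437 and 446 in yak, below every cattle array too. It differed by -1.32 from all cattle (SE 0.17, adjusted p = 0.000107) and by -0.92 from castrated males and females (SE 0.18, adjusted p = 0.00276).

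LUM read 300, 340 and 447 in yak, and its highest yak met the lowest female, also at 447. It differed by -1.74 from all cattle (SE 0.27, adjusted p = 0.000532) and by -1.02 from castrated males and females (SE 0.29, adjusted p = 0.0224). FMOD read 75.6, 105 and 81.5 in yak and overlapped the females. It differed by -1.53 from all cattle (SE 0.19, adjusted p = 9.21e-05) and by -0.69 from castrated males and females (SE 0.20, adjusted p = 0.0237). Against females alone LUM (-0.95, adjusted p = 0.0665) and FMOD (-0.45, adjusted p = 0.196) were not called. In the fit with castrated males and females, both lost their calls without yak 1, at -0.90 for LUM (adjusted p = 0.110) and -0.61 for FMOD (adjusted p = 0.115). LUM alone lost it without yak 2 (-0.98, adjusted p = 0.0835) and FMOD alone without yak 3 (-0.65, adjusted p = 0.0745).

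BGN in yak depended on the probe set. The first set read 147, 223 and 148 in yak and was lower than in all cattle (-1.33, SE 0.35, adjusted p = 0.0132). The second read 309, 290 and 296 in yak and was not called (-0.34, SE 0.15, adjusted p = 0.105). Against castrated males and females neither was called, at -0.41 (SE 0.38) for the first and -0.06 (SE 0.16) for the second.

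In buffalo, 4 of 5 members were again called lower and 0 higher than in cattle, a comparison in which 31.2% of all genes were lower and 19.9% higher. Against castrated males and females the count was 4, where 28.6% were lower and 19.2% higher. These comparisons use the same cattle arrays as those of yak. Of all genes called in buffalo against cattle 61.1% were lower, with 63% once array medians were made equal and 47% after quantile normalisation. The median log2 fold change of all genes was -0.08, or -0.10 with equal medians and 0.04 with quantile normalisation. The 4 members kept direction and call under each scaling.

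LUM read 176, 231 and 323 in buffalo, below every cattle array, and had the largest fold change of the members. It differed by -2.30 from all cattle (SE 0.27, adjusted p = 1.39e-05) and by -1.58 from castrated males and females (SE 0.29, adjusted p = 0.000558). FMOD read 59.7, 65.1 and 67.7 in buffalo, the tightest of its groups. It differed by -1.88 from all cattle (SE 0.19, adjusted p = 2.98e-06) and by -1.05 from castrated males and females (SE 0.20, adjusted p = 0.000722). The buffalo mean of FMOD, 6.32 on the log2 scale, lay under the filter value of 6.42, so its level there is close to the dimmest signals tested.

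OGN read 285, 354 and 342 in buffalo, against 570 to 1956 in cattle. It differed by -1.58 from all cattle (SE 0.17, adjusted p = 4.84e-06) and by -1.18 from castrated males and females (SE 0.18, adjusted p = 0.000118). DCN read 2163, 2545 and 2711 in buffalo, against 4144 to 8293 in cattle. It differed by -1.23 from all cattle (SE 0.09, adjusted p = 2.63e-07) and by -1.01 from castrated males and females (SE 0.10, adjusted p = 3.14e-06).

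BGN stood apart from the other members in buffalo. The second set read 391, 418 and 365 in buffalo, above all females and castrated males and below all intact males. It was not called against all cattle (0.03, SE 0.15, adjusted p = 0.890) or against castrated males and females (0.31, SE 0.16, adjusted p = 0.127). The first set read 179, 177 and 503 in buffalo, with buffalo 3 far above the others. It was not called against all cattle (-0.79, SE 0.35, adjusted p = 0.0774), and it differed by 0.13 from castrated males and females (SE 0.38, adjusted p = 0.794). In that comparison BGN differed from each of the other 4 members, with the first set too. With the second set the fold change of DCN minus that of BGN was -1.32, and that of BGN was above LUM by 1.89, above FMOD by 1.36 and above OGN by 1.49 (exact two-sided permutation p = 0.0119 and adjusted p = 0.0298 over 10 pairs for each, 3 against 6 arrays). No pair was called without buffalo 1, 2 or 3. Fewer arrays raise the smallest p this test can give, so that loss cannot show whether a single buffalo carried the result.

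In yak against castrated males and females, 3 of 10 pairs passed, BGN with DCN, LUM and OGN (exact permutation p = 0.0119, adjusted p = 0.0397 each). With the first BGN set 0 passed. Without any 1 of the 9 arrays 0 passed too, but the smallest possible p is then higher. That loss cannot show whether a single array carried the result. No pair among DCN, LUM, FMOD and OGN passed in either species.

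Buffalo and yak differed at DCN, by -0.36 (SE 0.11, adjusted p = 0.0212), and at no other member, where 25.8% of all genes were lower in buffalo. Of all calls between them 59.4% were lower in buffalo, with 66% once array medians were made equal and 48.3% after quantile normalisation. Under quantile normalisation the DCN difference was -0.13 (adjusted p = 0.438), and the second BGN set was called higher in buffalo at 0.54 (adjusted p = 0.0248). With the 6 yak and buffalo arrays alone DCN was not called (-0.36, adjusted p = 0.0729), while BGN (0.37, adjusted p = 0.0401) and FMOD (-0.36, adjusted p = 0.0481) were. Leaving out buffalo 1, yak 2 or yak 3 removed the DCN call, for a count of 0, and leaving out intact male 1 from the shared fit added BGN, for a count of 2.

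Across the groups DCN formed a ladder, with intact males highest, then castrated males, females, yak and buffalo, and no step overlapped the next. LUM, FMOD and OGN had the same order of means. For these 3, castrated males and females overlapped. Females and yak overlapped for LUM and FMOD and not for OGN, and yak and buffalo for LUM and OGN and not for FMOD. For the second BGN set buffalo came after intact males, and castrated males, females and yak overlapped in turn.

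The spread among intact males had a pattern over genes. Intact male 1 was highest for LUM, OGN and both BGN sets. Intact male 2 was highest for DCN and FMOD. Intact male 3 was lowest for all 6 probe sets. Keratocan (KERA), a relative of LUM that the annotation places beside LUM and DCN, read 179, 1598 and 470 in intact males 1 to 3. Tenomodulin (TNMD), a marker of tendon cells, read 339 in intact male 2 and at most 25.0 on the other 14 arrays. COMP, a cartilage and tendon matrix protein, read 321 in intact male 2, against 92.2 to 135 elsewhere. The tendon marker THBS4 had another order, at 4994, 4494 and 1533 in intact males 1 to 3. CD14 and CD68, markers of macrophages, read 4292 and 3315 in intact male 1, against 348 and 270 in intact male 3. The part of these markers in the proteoglycan values was not tested. Without intact male 2 FMOD was at -2.04 in castrated males and -2.51 in females, both called. DCN was then at -0.45 in castrated males (adjusted p = 0.139) and at -0.77, called, in females. LUM (-2.20 in castrated males and -2.34 in females) and OGN (-1.17 and -1.25) were then called in neither. Without intact male 1 LUM was at -1.79 in castrated males and -1.92 in females, both called. OGN was then at -1.10 in castrated males (adjusted p = 0.0622) and at -1.18, called, in females. The second BGN set without intact male 1 was at -0.54 in castrated males (adjusted p = 0.112) and -0.62 in females (adjusted p = 0.0515).

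**Figure D3:**
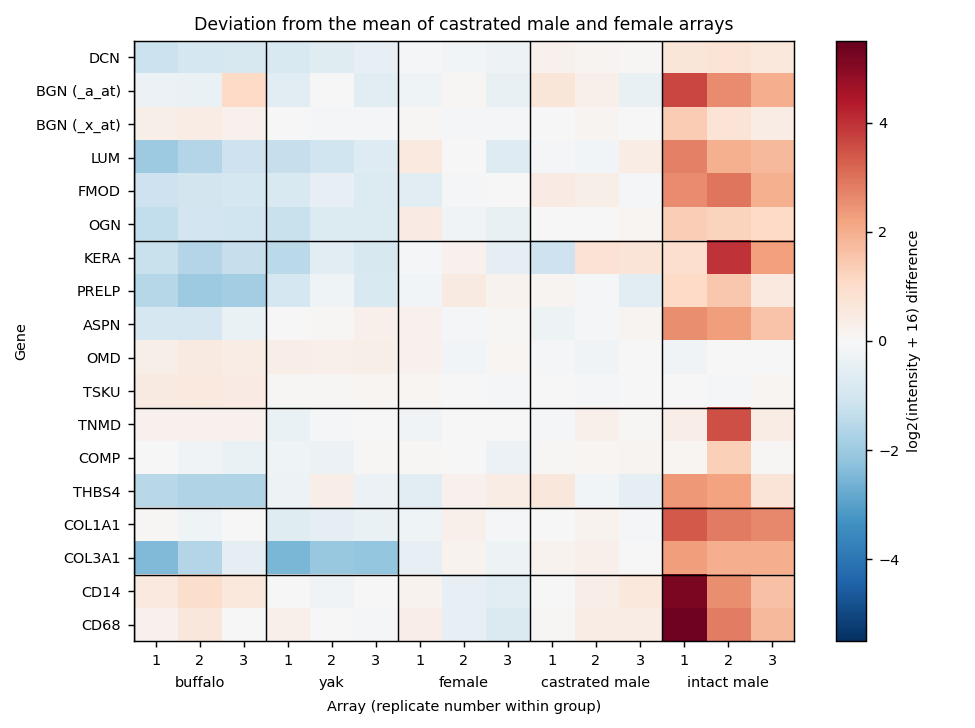
Deviation of log2(intensity + 16) on each array from the mean of the 6 castrated male and female arrays, for the proteoglycans, related family members, tendon markers, collagens and macrophage markers. TNMD, COMP and KERA are highest in intact male 2, and THBS4, CD14 and CD68 in intact male 1.

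The rest of the family was thinly covered. Of 13 other small leucine-rich proteoglycans 8 had a probe set and 3 passed the filter: PRELP, which anchors basement membranes to connective tissue, KERA and tsukushi (TSKU), a secreted signalling modulator. In castrated males against intact males limma called 0 of the 3, with 2 lower at an unadjusted p under 0.05. PRELP was at -1.21 (adjusted p = 0.0709), KERA at -2.27 (adjusted p = 0.140) and TSKU at -0.03. In females it called 0, again with 2 lower unadjusted, PRELP at -0.85 (adjusted p = 0.0940) and KERA at -2.49 (adjusted p = 0.0734). In yak against cattle PRELP (-1.04) and KERA (-1.78) were lower. In buffalo against cattle PRELP (-2.16) and KERA (-2.16) were lower and TSKU (0.48) was higher. KERA read 17.7 to 27.7 in buffalo and 20.9 to 52.6 in yak, all under the filter value of 6.42 on the log2 scale. Its mean passed the filter through the intact males, which also raise the cattle average. Against castrated males and females KERA was called in neither species, at -1.37 in buffalo (adjusted p = 0.0512) and -0.99 in yak (adjusted p = 0.2125). PRELP was lower in buffalo (-1.82) and in yak (-0.69, adjusted p = 0.0486), and TSKU (0.48) was higher in buffalo.

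Asporin (ASPN), a close relative of DCN, was below the filter and was not tested. It read 23.8, 30.8 and 37.9 in castrated males and 29.3 to 40.8 in females, against 266, 223 and 126 in intact males. Osteomodulin (OMD) was dim and ran from 42.9 to 80.1 over all arrays. In the RefSeq annotation of cattle (assembly ARS-UCD2.0), EPYC, KERA, LUM and DCN are neighbours, as are OGN, OMD, ASPN and ECM2, and FMOD, PRELP and OPTC.

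Collagens were called in the same direction as the members. The list holds fibril collagens with COL6A1 and COL6A2, which form beaded microfilaments, and COL12A1, which sits on fibril surfaces. Of 8 tested, 5 were lower and 0 higher in castrated males than in intact males, and 6 were lower and 0 higher in females. Their median fold changes were -1.93 in castrated males and -2.10 in females, where the medians of all genes were -0.02 and -0.03. COL1A2 was at -2.76 and COL1A1 at -2.92 in castrated males. In yak 6 of 8 were lower than in cattle and 5 than in castrated males and females, where COL3A1 was at -2.93 and -2.23. In buffalo 7 of 8 were lower than in cattle and 4 than in castrated males and females, where COL1A2 was at -2.54 and -1.55. COL1A1 was lower in buffalo than in cattle (-1.05). Against castrated males and females it was not called (-0.06, adjusted p = 0.779). None was higher in these 4 comparisons. The share of all genes lower was 16.4% and 11.6% in yak and 31.2% and 28.6% in buffalo, in that order of comparisons. Against intact males it was 1.02% in castrated males and 4.09% in females. These shares hold for the lists that follow. The share of all genes at an unadjusted p under 0.05 was not taken, so unadjusted counts have no background beside them.

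Of 12 other proteoglycan cores tested, limma called 0 in castrated males against intact males, with 6 lower and 0 higher unadjusted. It called 2 lower in females, versican (VCAN, -1.97) and serglycin (SRGN, -2.27), the proteoglycan of blood cell granules. In yak 5 were lower than in cattle, with the basement membrane core HSPG2 at -0.99, SPOCK2 at -2.17, SDC2 at -0.48 and GPC1 at -0.47. Of these HSPG2 (-0.81) and SPOCK2 (-2.26) made up the 2 called against castrated males and females. In buffalo 3 were lower than in cattle, HSPG2 (-1.18), SDC2 (-0.74) and SPOCK2 (-1.43), and 2 were higher, ACAN (0.35) and PRG4 (0.39). The counts against castrated males and females were also 3 and 2, where 28.6% of all genes were lower and 19.2% higher.

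Of 13 tested enzymes and carriers that build and sulphate the sugar chains, limma called 0 in castrated males and 0 in females against intact males, with 4 lower and 0 higher unadjusted in each. In yak 3 were lower than in cattle, PAPSS1 (-1.74), which makes the sulphate donor, CHST14 (-0.40) and CHSY1 (-1.06), and 2 were lower than in castrated males and females, PAPSS1 (-1.39) and CHST14 (-0.34). In buffalo 5 were lower than in cattle, with CHST1, a keratan sulphate sulphotransferase, at -0.69 and PAPSS1 at -1.05, and 2 were higher, CHPF (0.33) and CSGALNACT2 (0.29). The counts against castrated males and females were 3 lower and 2 higher, beside 28.6% and 19.2% of all genes.

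Of 5 tested proteases able to cut these proteins, MMP2 was lower in castrated males (-1.26) and, with ADAMTS1 (-1.77), in females (-1.60). In yak MMP2 and MMP9 were lower, at -1.17 and -0.79 against cattle and at -0.69 and -0.76 against castrated males and females. In buffalo MMP2 (-1.66), ADAMTS4 (-1.78) and ADAMTS1 (-0.93) were lower than in cattle and MMP9 (0.46) was higher. Against castrated males and females 1 was lower, MMP2 (-1.19), and 1 higher, MMP9 (0.50). Of 10 tested growth factors, receptors and partners, TGFBR2, a receptor for TGF-beta, was the 1 called in castrated males (-0.94) and in females (-0.77), lower in both. In yak 3 were lower than in cattle, DAG1 (-0.80), TGFB2 (-0.91) and TGFBR2 (-0.80), and against castrated males and females 2, without TGFBR2 (-0.52, adjusted p = 0.0564). In buffalo 5 were lower and 1 higher in both comparisons. Against cattle TGFB2 was at -2.73, SGCA at -1.30, CCN2, a matrix growth factor, at -2.56 and ITGB1 at -0.78, and the gene called higher was IGF1R (0.53).

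Markers of cells that could supply these transcripts were read beside the members, and their part in the result was not tested. Of 9 tested fibroblast markers, 3 were lower in castrated males and 6 in females than in intact males, with none higher. The summed intensity of the list ran from 3623 to 5440 over females and from 4865 to 5347 over castrated males, against 9422 to 14353 in intact males. It was 2099 to 2595 in buffalo and 3210 to 3897 in yak. Against cattle 5 were lower in buffalo and 5 in yak, and against castrated males and females 6 in buffalo and 2 in yak, with none higher. PI16, a fibroblast gene, was at -2.77 in castrated males and -3.07 in females. PDGFRA, on the same list, overlapped between the groups. It read 242, 299 and 260 in castrated males and 297, 239 and 276 in females, against 153, 266 and 310 in intact males.

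Of 10 macrophage markers, limma called 0 in castrated males, with 10 lower unadjusted, and 7 lower in females. The sum ran from 826 to 1855 over females and from 1943 to 2782 over castrated males, against 4112 to 24087 in intact males. It was 931 to 1189 in buffalo and 1184 to 1343 in yak. Against cattle 5 were lower in buffalo and 4 in yak, and against castrated males and females 3 in buffalo and 0 in yak (0 unadjusted), with none higher. Of the tendon markers COMP and THBS4 were tested and 0 were called in castrated males or females, with 1 lower unadjusted in each. With TNMD the sum ran from 768 to 1383 over females and from 786 to 1602 over castrated males, against 1686 to 5153 in intact males. It was 401 to 461 in buffalo and 878 to 1339 in yak. Of the 2 tested, 1 was lower in buffalo and 0 in yak, both against cattle and against castrated males and females, with none higher. Of 9 muscle fibre markers limma called 0 in castrated males or females, with 0 in castrated males and 1 higher in females unadjusted. The sum ran from 116109 to 122438 over females and from 120732 to 125700 over castrated males, against 104413 to 123497 in intact males. In buffalo 4 were lower than in cattle, MB (-0.58), TNNT3 (-0.78), CKM (-0.43) and DES (-0.46), and MYH7 (0.56) was higher. In yak TNNT1 (-0.53), MYH7 (-0.49) and ACTA1 (-0.34) were lower than in cattle. The counts against castrated males and females were the same.

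Of 5 adipocyte markers, limma called 0 in castrated males or females against intact males, with 1 lower unadjusted in each. In buffalo 2 were lower than in cattle, CIDEC (-2.65) and ADIPOQ (-1.93), and 2 higher, LEP (1.06) and LPL (1.34). In yak 3 were lower, LPL (-1.56), CIDEC (-2.74) and ADIPOQ (-1.81). The counts against castrated males and females were the same. The sum ran from 2424 to 5065 over buffalo and from 536 to 1152 over yak, against 2056 to 4796 in females, 2123 to 4090 in castrated males and 1745 to 5716 in intact males.

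Genes whose log2 values followed each member most closely over the 15 arrays were picked by Pearson r, as a description, since the arrays share groups. For DCN these were SPARC (0.959), a collagen-binding matrix protein, PCOLCE (0.958), which enhances procollagen cleavage, and PPIC (0.958). For OGN they were PCOLCE (0.970), LRRC17 (0.960) and SPARC (0.960). For LUM they were CCDC80 (0.979), FBN1 (0.976), the main protein of microfibrils, and LRRC17 (0.975). For FMOD they were SERPINB1 (0.980), PI16 (0.973) and SERPINF1 (0.971). For the second BGN set they were CD14 (0.981), SPC24 (0.964) and MYH3 (0.961), the embryonic myosin heavy chain.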

How the data were processed

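Total RNA from 15 muscle samples was hybridised to Affymetrix bovine arrays, per the labels' protocols. The authors deposited 1 table of linear intensity values per probe set; their background correction, summary and scaling of the intensity were not given in the sources used here, and no detection calls were used. Groups came from the labels, which call the arrays biological replicates.

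The 112 control probe sets were removed, 16 was added and log2 taken. Probe sets with a mean above the 40th percentile (6.42) were kept. Symbols came from the platform annotation (13292 probe sets with 1 symbol, 86 with several, 10638 not listed). A gene was read from its probe set with the highest mean log2. limma 3.58.1 in R 4.3.3 (lmFit, eBayes with trend, two-sided) was fitted to the 9 cattle arrays, and to all 15 arrays for species, with Benjamini-Hochberg adjustment over all probe sets tested. Pairs of members were compared by exact permutation over arrays. The fit was tested on simulated data. The number of arrays limits the precision.

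Alternatives were the pseudocount (1, 64), the filter, the scaling, the spread, the replicate block, the probe sets of a gene, the arrays fitted, the cattle groups used and each array left out; the other BGN probe set and the arrays left out with castrated males and females as cattle were added after seeing the data. Members and lists were chosen with earlier results of these data known. Beyond the members, the text names the 3 genes with the highest r per member and up to 4 genes per list and contrast by smallest p. SPOCK2, IGF1R, DES and COL1A1 in buffalo were named after their values were seen. So were PDGFRA and the single-array values of tendon and macrophage markers.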

Additional observations from a re-analysis of the deposited data

How the results depend on the processing

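Counts of called members outside the arrays left out lay within 1.5 times the main count for castrated males against intact males (4, range 3 to 5), females against intact males (4, range 4 to 5), females against castrated males (0) and buffalo against cattle (4, range 4 to 5). With each array left out in turn they ran from 1 to 5, from 2 to 5, at 0 and at 4. In castrated males DCN missed the threshold with no filter (adjusted p = 0.0576), with no trend (0.0570) and with quantile normalisation (0.0507). Yak against cattle (4) gave 2 with females as cattle, and 2 to 5 with arrays left out, the lowest being castrated males and females without yak 1. Buffalo against yak (1) gave 2 with array quality weights (BGN added, 0.38, adjusted p = 0.0253), 2 with the 6 yak and buffalo arrays only (BGN and FMOD, with DCN lost), 1 with quantile normalisation (BGN in place of DCN), and 0 to 2 with arrays left out. BGN in buffalo against cattle was -0.54 (adjusted p = 0.0296) with intact males as cattle, against 0.03 with all cattle. Pairs of members in yak (3) gave 0 with a pseudocount of 64, 0 with the other BGN probe set and 0 with any array left out, and in buffalo (4) 0 to 4 with arrays left out; fewer arrays raise the smallest p these tests can give. The cause of the other changes was not tested. With the replicate number as a block the counts were 4, 4, 0, 4, 4 and 1, as without it. Same-numbered cattle arrays had a median r of 0.0665 (3 of 9 pairs over 0.1), against -0.00445 for cattle arrays of unlike number. So few correlations cannot decide whether the numbers pair animals. Dim signal limits FMOD in buffalo and KERA in buffalo and yak.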
